A study of Mus musculus with 8 samples.

Results

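Ion channel genes were followed in MC3T3, a cell line of mouse osteoblast precursors that mineralizes its matrix in culture. Genes were taken by name from the deposited count table: potassium channel genes (symbols starting Kcn), voltage-gated calcium (Cacn) and sodium (Scn) channel genes, Trpc, Trpm and Trpv genes, Piezo1 and Piezo2, anoctamins (Ano) and ClC genes (Clcn). Of 43346 genes in the table, 181 carried such a name, 175 of these were protein coding, and 54 had 80 or more counts summed over the 8 libraries and form the set described here. They comprised 21 potassium, 9 calcium, 12 chloride and 3 sodium channel genes and 9 Piezo and Trp genes. Auxiliary subunits are included in each class, and 1 gene, Trpc4ap, entered through its symbol although it encodes an adaptor of a ubiquitin ligase and not a channel.

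Cells of all 8 samples grew for 7 days with ascorbic acid (100 ug/mL) and beta-glycerophosphate (10 mM), which support mineralization. In the LLC_CM group (4 libraries) conditioned medium of LLC1, a Lewis lung carcinoma line of the mouse, made up 25% of the medium. The NCM group (4 libraries) is taken as the vehicle control by elimination, since the labels do not spell that name out. The design asks how soluble products of the carcinoma cells alter gene expression of mineralizing osteoblasts, in 1 cell line. Separate cultures are not stated for the replicates, and the p-values therefore reflect only the spread of these libraries, which may be technical.

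Libraries held 27264212 to 35573953 assigned reads. Levels are CPM, read counts scaled to a common library total, and a count of 0 allows up to 0.111 CPM in the shallowest library (3 counts, counting error only). Osteoblast markers were abundant in both groups, at 65801 to 77986 CPM summed over 10 genes in LLC_CM and 92914 to 119012 CPM in NCM, and 9 of the 10 were lower in LLC_CM. Of 8 neuron markers, Snap25, Rbfox3, Nefl and Stmn2 had no count in any library. The summed neuron list was nevertheless 45.1 to 68.8 CPM in NCM and 3.61 to 4.89 CPM in LLC_CM, nearly all of the difference being Tubb3, a neuronal tubulin, at 50.8 ± 11.2 and 0.892 ± 0.312 CPM (SD, n = 4). Striated muscle markers summed to 4.73 to 6.31 CPM in NCM and 4.25 to 6.33 CPM in LLC_CM, with Myog and Actn2 at 0. Glia markers summed to 16.7 to 23.5 and 31.1 to 41.5 CPM, smooth muscle markers to 873 to 1033 and 679 to 853 CPM, and chondrocyte markers to 532 to 785 and 73.2 to 94 CPM in NCM and LLC_CM. Most of the chondrocyte sum in NCM was Col11a2, at 430 ± 110 CPM there and 6.73 ± 0.896 CPM in LLC_CM. Of 5 chondrocyte markers tested 4 were lower in LLC_CM, and Sox9 was higher, at 34.6 ± 1.42 against 20.4 ± 1.2 CPM. Macrophage markers summed to at most 32.3 CPM, adipocyte markers to at most 25.2 CPM, endothelial markers to at most 2.73 CPM and epithelial markers, with Epcam, Krt8 and Krt18 at 0, to at most 2.24 CPM in any library. The part of these shifts in the channel results was not tested, and in bulk RNA fewer cells of a type and less RNA per cell cannot be told apart.

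Ion channels let ions cross membranes down their gradients, and each class has its own gate. Piezo proteins open when the membrane is stretched, Trp channels respond to heat, osmotic swelling, lipids or intracellular calcium, and Cacn, Scn and many Kcn channels open on depolarization. In bone-forming cells, stretch-activated and voltage-gated calcium entry links mechanical load to gene expression, potassium channels set the membrane potential, and chloride channels and exchangers serve cell volume and the acidity of endosomes and lysosomes. Anoctamins include calcium-activated chloride channels and lipid scramblases, which move phospholipids between the leaflets of a membrane.

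More channel genes changed than remained below the threshold, in both directions. All 54 passed the low-count filter and were tested, and 36 (66.7%) passed a Benjamini-Hochberg adjusted p of 0.05 in the quasi-likelihood test of edgeR. LLC_CM was higher for 16 and lower for 20. Over all 14991 genes tested 36.9% passed, 18.8% higher and 18.1% lower, and over protein-coding genes with at least 80 counts 41.5% passed. The 4 values of each group did not overlap for 31 channel genes, 12 with LLC_CM above and 19 with it below, against 36.3% of all genes tested (18.1% above and 18.2% below). A called change of at least 2-fold was seen for 15 channel genes (27.8%), 6 higher and 9 lower, against 8.61% of all genes tested (4.99% higher and 3.62% lower) and 8.98% of protein-coding genes with at least 80 counts. The median log2 fold change of the channel genes was -0.10 and their median absolute change 0.47, where all genes tested had 0.01 and 0.21. The 80-count minimum can be met through 1 group alone: Cacna1d had 22 counts in NCM, and Ano1, Kcnma1 and Kcnk6 had 12, 13 and 2 counts in LLC_CM, so these 4 genes could enter only by differing.

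**Figure D1:**
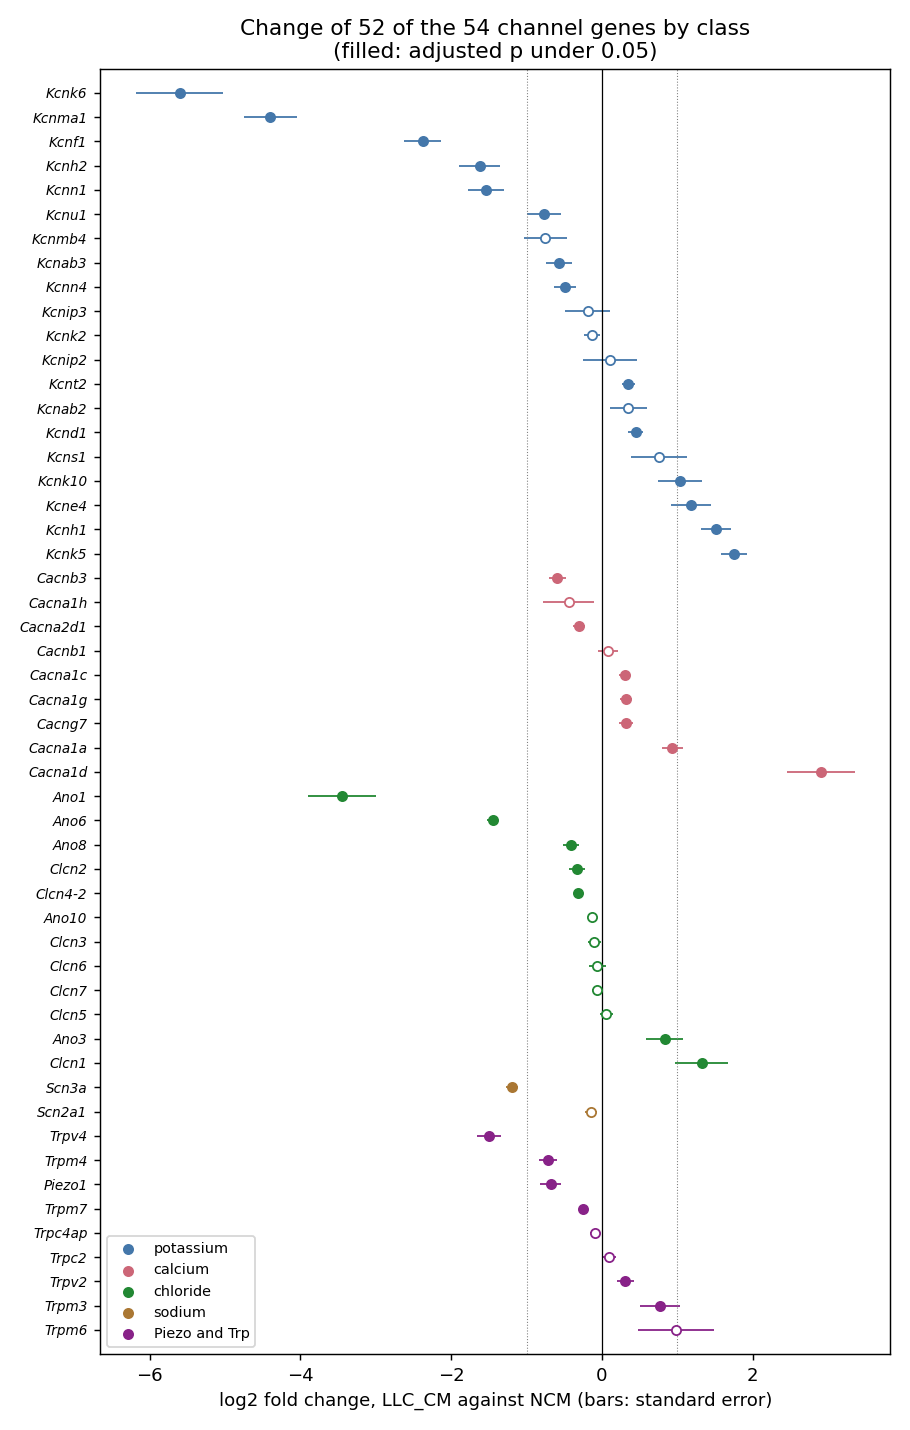
Log2 fold change of 52 of the 54 channel genes, LLC_CM against NCM, grouped by class, with the standard error as a bar and dotted lines at a 2-fold change. Filled points passed an adjusted p of 0.05: 35 of the genes drawn, from Kcnk6 at -5.60 to Cacna1d at 2.90.

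Of the 10 channel genes most abundant per kilobase of gene length, Ano6 and Scn3a changed at least 2-fold. Ano6 had the highest mean over the 8 libraries, 50.2 CPM per kilobase, followed by Ano10 (26), Trpm7 (19.0), Clcn4-2 (18.7), Trpc4ap (16.5), Cacna1g (14.1), Scn3a (11.1), Clcn7 (11.1), Piezo1 (9.47) and Cacnb3 (9.07). For 11 genes the exonic length in GENCODE M21 differed from the deposited one by more than 1.5-fold. With the GENCODE lengths Ano6 was the highest over the 8 libraries, at 23.1 CPM per kilobase, and in NCM (33.8). In LLC_CM it ranked 4, at 12.4 against 17.3 CPM per kilobase for Trpm7. Ano10 moved from rank 2 to rank 5. Of the 31 channel genes at 1 CPM per kilobase or more, 5 were called with at least a 2-fold change (Ano6, Scn3a, Trpv4, Kcnh2 and Kcnk5), and of the 23 below that level 10 were. Without the 4 genes that met the 80-count minimum through 1 group alone, the latter count was 6 of 19. Over all genes tested, at any level, 8.61% were called with at least a 2-fold change. That share was not split by level, so whether the difference between levels is particular to channel genes was not tested.

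**Figure D2:**
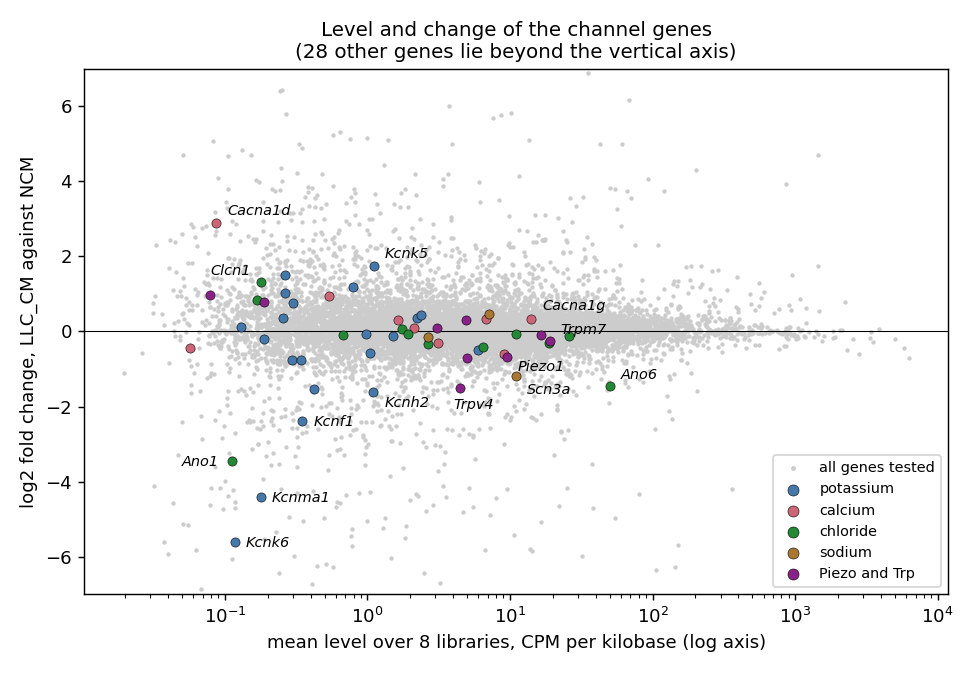
Log2 fold change (vertical axis) against mean CPM per kilobase over the 8 libraries (horizontal log axis) for the channel genes, coloured by class, over all genes tested in grey. Ano6, Scn3a and Trpv4 lie lowest among channel genes above 4 CPM per kilobase, and the lowest of the channel genes, Kcnk6 and Kcnma1, lie below 0.2 CPM per kilobase.

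Summed over members, chloride, sodium, and Piezo and Trp genes had a lower level in LLC_CM. The chloride class summed to 91.8 ± 3.94 CPM per kilobase in LLC_CM and 148 ± 6.33 in NCM (SD, n = 4), with Ano6 making up 29.3% and 49.7% of it. The sodium class summed to 17.5 ± 0.97 in LLC_CM and 24.3 ± 1.56 CPM per kilobase in NCM. Piezo and Trp channels, without Trpc4ap, summed to 39.6 ± 2.93 and 52.6 ± 4.35. In these 3 classes the libraries of the groups did not overlap. The calcium class, at 38.1 ± 2.45 and 36.9 ± 2.05, and the potassium class, at 19.3 ± 1.29 and 21.1 ± 1.21 CPM per kilobase, overlapped. A sum per class follows its most abundant members and was not tested.

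**Figure D3:**
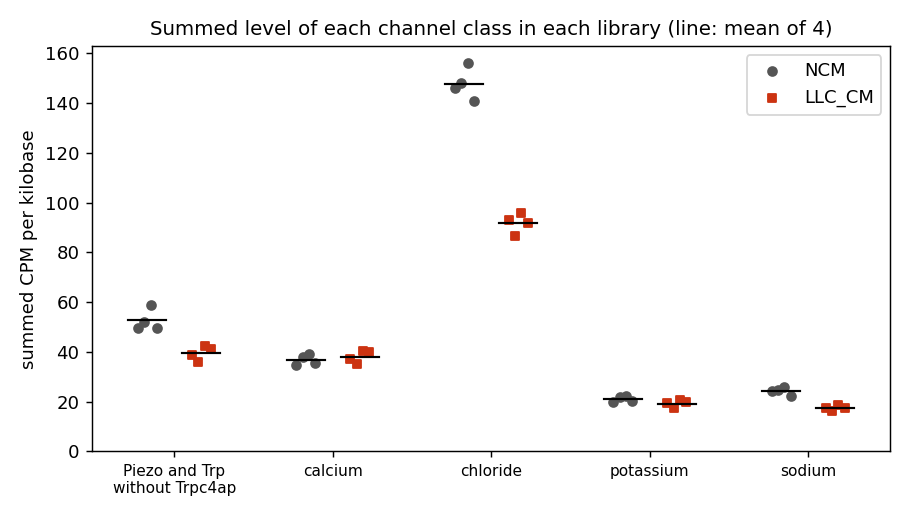
Summed CPM per kilobase of each channel class in each library, with a line at the mean of 4 libraries (grey circles NCM, red squares LLC_CM). Chloride genes lie at 141 to 156 in NCM and 86.5 to 95.9 in LLC_CM, and the calcium and potassium sums overlap between groups.

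For orientation on the regulatory sequence, the 150 bases upstream of the annotated start are shown for Ano6, Trpv4, Piezo1 and Kcnf1, which were lower in LLC_CM, and for Clcn1, which was higher. They come from RefSeq (GRCm38.p6) and are written 5′ to 3′ on the strand of the gene. Capitals mark matches, on either strand, to the Sp and Klf factor box GGGCGG or the Runx core TGTGGT. No matches overlap in these windows, and an exon of an antisense gene, A130051J06Rik, lies in the Ano6 window. Each window shown holds a match, whereas those of Cacna1d, Kcne4 and Trpm7, which were also called, hold none.
Ano6, chr15:95790693-95790842, plus strand: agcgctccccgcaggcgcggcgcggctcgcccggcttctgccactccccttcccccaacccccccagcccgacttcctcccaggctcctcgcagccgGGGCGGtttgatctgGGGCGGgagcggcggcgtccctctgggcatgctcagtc
Trpv4, chr5:114658422-114658571, minus strand: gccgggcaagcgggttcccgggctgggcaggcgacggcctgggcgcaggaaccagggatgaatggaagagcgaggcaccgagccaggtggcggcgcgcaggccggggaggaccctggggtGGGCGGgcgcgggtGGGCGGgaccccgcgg
Piezo1, chr8:122551330-122551479, minus strand: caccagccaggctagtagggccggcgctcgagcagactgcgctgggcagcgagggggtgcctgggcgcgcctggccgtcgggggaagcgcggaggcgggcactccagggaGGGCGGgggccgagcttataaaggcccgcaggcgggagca
Kcnf1, chr12:17176889-17177038, minus strand: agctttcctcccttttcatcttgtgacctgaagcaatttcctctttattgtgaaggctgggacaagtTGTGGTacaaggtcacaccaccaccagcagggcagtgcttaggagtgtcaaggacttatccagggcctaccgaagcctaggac
Clcn1, chr6:42286535-42286684, plus strand: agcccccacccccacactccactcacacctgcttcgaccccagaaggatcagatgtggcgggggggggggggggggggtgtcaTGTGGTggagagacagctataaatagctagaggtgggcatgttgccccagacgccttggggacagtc

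In all, 36 channel genes had a RefSeq start within 1000 bases of the deposited 5′ end. GGGCGG occurred in the 150-base window of 17 of them (47.2%), against 29.0% of 27025 promoters of the same length. The latter are 1 per gene, whether expressed or not, so the 2 sets are unlike. Of the 9 genes at least 2-fold lower 5 had a window, and GGGCGG was present in 4 of these. It was present in 3 of 6 that were at least 2-fold higher. TGTGGT occurred in 5 of the 36 (13.9%, against 8.5% of all promoters), 1 of them at least 2-fold lower (Kcnf1) and 1 at least 2-fold higher (Clcn1). The AP-1 site TGANTCA occurred in 1 of the 36 (Kcnip3), against 4.3% of all promoters, and the Stat site TTCNNNGAA in 2 (Clcn7 and Kcnip3), against 4.2%. A 10-base NF-kB pattern occurred in 0 of the 36, against 0.9%. The window's median GC content was 75.3% for the 5 lower genes, 59.6% for the 6 higher genes, 62.7% for the 25 other channel genes and 54% over all promoters. Of the 36 windows 21 held no annotated exon, and the rest, which held exon sequence, were kept in all these shares. These matches are a description of letters in a window and not of binding.

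Among Piezo and Trp channels, Piezo1, Trpv4, Trpm4 and Trpm7 fell in LLC_CM. Piezo1 (ENSMUSG00000014444, chromosome 8, 122481698 to 122551329 in mm10), the stretch-gated cation channel of bone cells, stood at 65.3, 59.2, 84.2 and 80.1 CPM in the 4 LLC_CM libraries and at 105, 113, 148 and 98.0 CPM in the NCM libraries. Every LLC_CM library lay below every NCM library, and NCM replicate 3 was the highest. Piezo1 fell by 0.68 ± 0.14 on the log2 scale (SE, adjusted p = 0.0024), 1.6-fold lower, and fell by 0.55 without NCM replicate 3 (adjusted p = 0.0021). Of its exonic length 24.6% overlapped Ctu2 on the other strand, and reads from that stretch cannot be assigned to 1 of the genes by strand. Piezo2, the other member of the family, had 1 count over LLC_CM and 3 over NCM and was not tested.

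Trpv4 (chromosome 5, 114622152 to 114658421), a calcium-permeable channel opened by osmotic swelling and flow, had the largest change of the class. Its levels were 9.40, 6.92, 11.4 and 10.5 CPM in LLC_CM and 23.7, 24.2, 35.6 and 24.9 CPM in NCM. The groups were separated by more than the whole LLC_CM range, with NCM replicate 3 again highest. Trpv4 fell by 1.5 ± 0.16 (SE, adjusted p = 5.6e-06), 2.82-fold lower. Trpm4, a calcium-activated channel for monovalent cations, averaged 16.0 ± 2.31 CPM in LLC_CM and 26.3 ± 4.22 CPM in NCM (SD, n = 4). It fell by 0.72 ± 0.12 (adjusted p = 0.00029). Trpm7, a divalent cation channel fused to a kinase and the most abundant Trp gene per kilobase, lay at 193 to 204 CPM in LLC_CM and 224 to 237 CPM in NCM. Its small change, a fall by 0.25 ± 0.05 (adjusted p = 0.0016), came with a narrow spread in both groups.

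The remaining Trp genes were higher or not past the threshold. Trpv2, another calcium-permeable Trpv channel, rose by 0.31 ± 0.11 (adjusted p = 0.029), at 22.1 to 27.3 CPM in LLC_CM and 16.4 to 22.5 CPM in NCM, and the groups overlapped. That call was lost without LLC_CM replicate 3 (0.071), LLC_CM replicate 4 (0.11), NCM replicate 1 (0.095) or NCM replicate 4 (0.11). Trpm3, a heat- and steroid-sensitive channel, rose by 0.77 ± 0.27 (adjusted p = 0.035) from 1.11 to 1.90 CPM, and lost the call without LLC_CM replicate 1 (0.051), LLC_CM replicate 3 (0.12), NCM replicate 1 (0.11), NCM replicate 2 (0.10) or NCM replicate 4 (0.054). Trpm6, a magnesium channel, had a log2 fold change of 0.98 ± 0.50 at under 1 CPM (adjusted p = 0.14), and passed without LLC_CM replicate 2 (0.029). Trpc2, which in mice serves pheromone sensing, and Trpc4ap had log2 fold changes of 0.09 ± 0.09 and -0.09 ± 0.07. In GENCODE M21 49.4% of the exonic length of Trpc2 is shared with a second gene model on the same strand, so its reads may be split or lost. Of 7 Trpc channel genes in the table Trpc2 alone reached 80 counts, and the highest total among the other 6 was 2 counts.

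**Figure D4:**
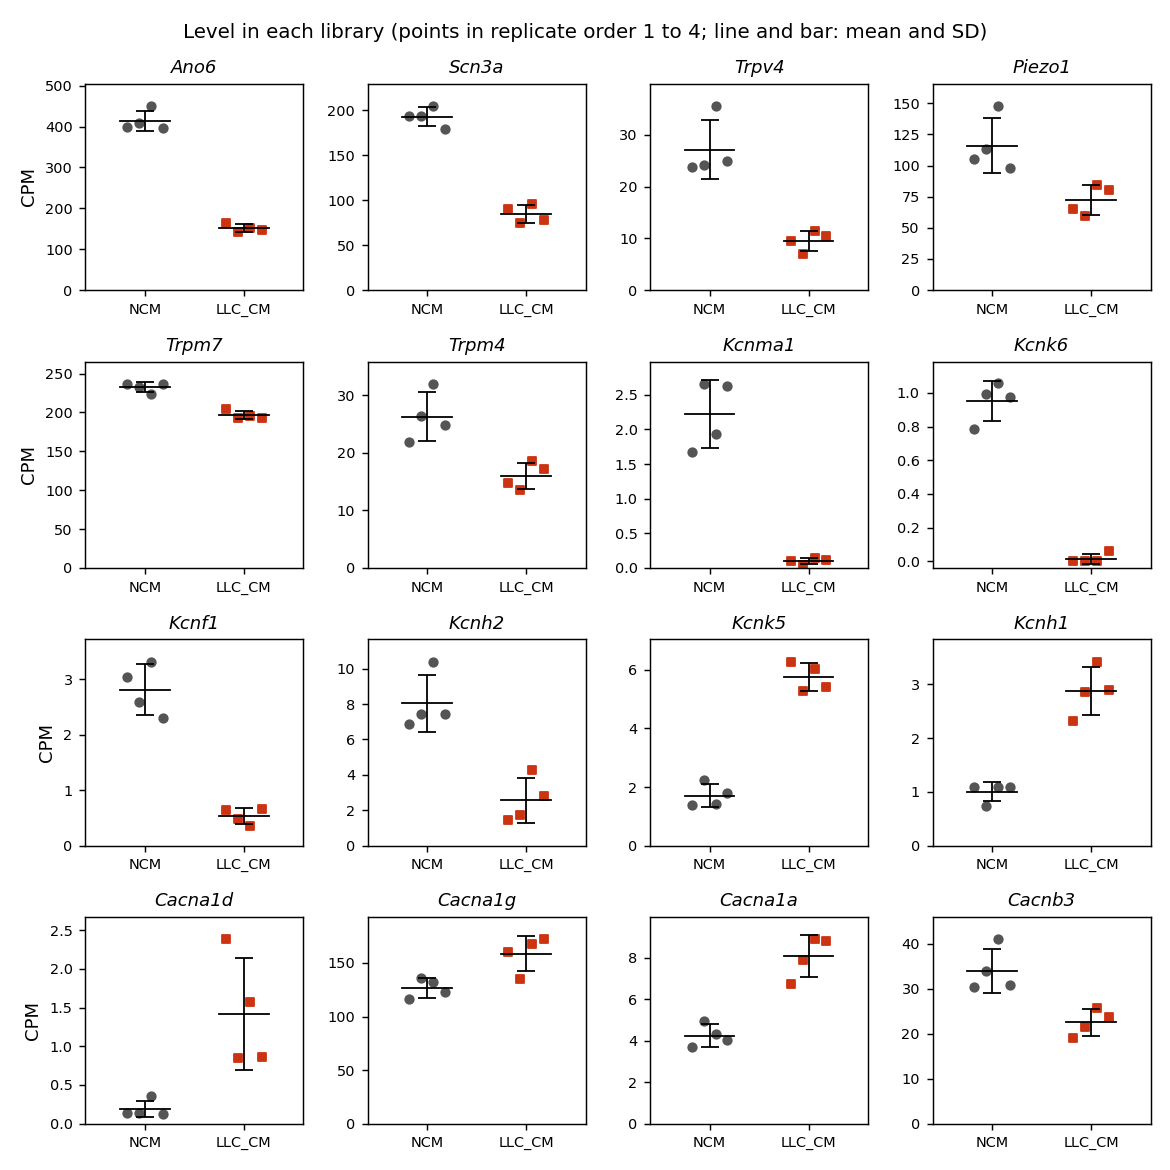
CPM in each library for 16 channel genes (grey circles NCM, red squares LLC_CM, points from left to right replicates 1 to 4), with a line and bar for the mean and SD, and vertical axes differ between panels. The groups do not overlap in any panel except Cacna1g, and NCM replicate 3 is the highest NCM point for Ano6, Scn3a, Trpv4, Piezo1, Trpm4, Kcnk6, Kcnf1, Kcnh2, Cacna1d and Cacnb3.

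Most tested genes for pore-forming alpha-1 subunits of voltage-gated calcium channels rose in LLC_CM, while some auxiliary subunits fell. Of 5 alpha-1 genes tested 4 rose, and 1 of these, Cacna1d, met the 80-count minimum through LLC_CM alone. Cacna1h, a T-type channel at under 1 CPM, did not pass (log2 fold change -0.44 ± 0.34). Cacna1g (chromosome 11, 94408391 to 94474198), a T-type channel that opens near the resting potential and the most abundant calcium channel gene per kilobase, stood at 160, 135, 168 and 172 CPM in LLC_CM and at 116, 136, 132 and 123 CPM in NCM. LLC_CM replicate 2 lay just below NCM replicate 2, so the groups overlapped at that 1 library, and Cacna1g rose by 0.32 ± 0.08 (adjusted p = 0.0038). Cacna1c, the main L-type channel of osteoblasts, rose by 0.30 ± 0.07 (adjusted p = 0.0041), from 31.2 ± 2.49 to 38.3 ± 1.61 CPM (SD, n = 4). Cacna1a, the P/Q-type channel of nerve terminals, rose by 0.93 ± 0.14 (adjusted p = 6.2e-05), from 3.68 to 4.96 CPM in NCM to 6.73 to 8.88 CPM in LLC_CM.

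Cacna1d, the second L-type gene, was near the floor in NCM. Its levels were 2.38, 0.851, 1.57 and 0.867 CPM in LLC_CM and 0.136, 0.142, 0.353 and 0.126 CPM in NCM, from 182 and 22 counts. The LLC_CM libraries spread widely but all lay above NCM. Cacna1d rose by 2.90 ± 0.45 (adjusted p = 0.00011), and the ratio of pooled counts was 7.64 with an exact 95% counting interval of 4.9 to 12.5. Such intervals, here and below, cover counting error of pooled reads only and leave out the spread between libraries. It remained far less abundant per kilobase than Cacna1c, at 0.153 ± 0.0785 against 1.81 ± 0.0761 CPM per kilobase in LLC_CM.

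The beta subunit Cacnb3, which carries alpha-1 subunits to the membrane, lay at 19.0, 21.6, 25.8 and 23.7 CPM in LLC_CM and 30.5, 33.9, 41.0 and 30.8 CPM in NCM. It fell by 0.59 ± 0.11 (adjusted p = 0.00057) with no overlap between groups. Cacna2d1, an extracellular auxiliary subunit, fell by 0.31 ± 0.08 (adjusted p = 0.0093), and its groups overlapped at 1 library. Cacnb1 did not pass (0.08 ± 0.13). Cacng7, better known as a regulator of glutamate receptors, rose by 0.32 ± 0.09 (adjusted p = 0.0097).

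Among voltage-gated sodium channel genes, Scn3a fell and Scn2a1 did not pass the threshold. Scn3a (ENSMUSG00000057182, chromosome 2, 65457118 to 65567627), an alpha pore subunit typical of embryonic neurons, stood at 90.2, 74.9, 95.6 and 78.0 CPM in LLC_CM and at 194, 194, 205 and 179 CPM in NCM. The highest LLC_CM library was under every NCM library by a wide margin, and Scn3a fell by 1.19 ± 0.08 (adjusted p = 1.2e-08), 2.28-fold lower. Its neighbour Scn2a1, which starts 53.2 kb away, lay at 21.3 to 24.8 CPM in LLC_CM and 23.9 to 27.2 CPM in NCM (log2 fold change -0.15 ± 0.08, adjusted p = 0.15). The longest aligned stretch between transcripts of these genes ran over 4294 bases at 83.3% identity. Whether reads from the most conserved exons were assigned to the wrong gene was not measured. Scn3a made up 38.8% of the summed sodium class per kilobase in LLC_CM and 63.8% in NCM.

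Among chloride channel genes the anoctamins Ano6, Ano1 and Ano8 fell, and the endosomal ClC exchangers mostly did not pass the threshold. Ano6 (chromosome 15, 95790843 to 95975464), a calcium-activated lipid scramblase that exposes phosphatidylserine on the cell surface, stood at 165, 142, 153 and 147 CPM in LLC_CM and at 400, 409, 451 and 397 CPM in NCM. The spread within each group was small against the gap, and Ano6 fell by 1.45 ± 0.07 (adjusted p = 2.5e-10), 2.73-fold lower, with the smallest p of all channel genes. Ano1, the calcium-activated chloride channel of epithelia and smooth muscle, was near the floor in LLC_CM, at 0.0966, 0.148, 0.140 and 0 CPM, and lay at 0.989, 1.10, 1.31 and 0.915 CPM in NCM. It fell by 3.45 ± 0.45 (adjusted p = 1.8e-05), with a ratio of pooled counts, NCM over LLC_CM, of 11.4 (exact 95% counting interval 6.28 to 22.6). Ano8, which tethers membranes, fell by 0.41 ± 0.11 (adjusted p = 0.010). Ano10, per kilobase the second most abundant channel gene with the deposited lengths, had a log2 fold change of -0.13 ± 0.06 (adjusted p = 0.076) and passed without NCM replicate 4 (0.034). Ano3, at 0.878 CPM in NCM and 1.56 CPM in LLC_CM, rose by 0.83 ± 0.24 (adjusted p = 0.015), a call lost without LLC_CM replicate 1 (0.051) or NCM replicate 2 (0.052).

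All 7 ClC genes of the table were members. Clcn4-2, an endosomal chloride-proton exchanger, lay at 72.5 to 79.2 CPM in LLC_CM and within 95.1 to 95.6 CPM in NCM. It fell by 0.32 ± 0.05 (adjusted p = 0.00015), a change of 1.25-fold against a very narrow NCM spread, and an antisense model overlapped 11.5% of its exons. Clcn2, a plasma membrane channel, fell by 0.33 ± 0.11 (adjusted p = 0.028), which was lost without LLC_CM replicate 1 (0.089), LLC_CM replicate 2 (0.056), NCM replicate 2 (0.085) or NCM replicate 3 (0.072). Clcn1, the chloride channel of skeletal muscle, rose by 1.32 ± 0.35 (adjusted p = 0.0081) at low levels, 0.807 to 2.09 CPM in LLC_CM and 0.341 to 0.850 CPM in NCM, which overlapped. Clcn7, the lysosomal exchanger mutated in osteopetrosis, stood at 57.4 ± 5.91 CPM in LLC_CM and 59.7 ± 3.04 CPM in NCM (SD, n = 4), with a log2 fold change of -0.06 ± 0.07. The other intracellular exchangers Clcn3, Clcn5 and Clcn6 had log2 fold changes of -0.10, 0.06 and -0.06 and did not pass.

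Of 21 potassium channel genes 8 were lower and 6 higher in LLC_CM, mostly at low levels. Of the 14 called, 9 changed at least 2-fold: Kcnk6, Kcnma1, Kcnf1, Kcnh2 and Kcnn1 lower, and Kcnk5, Kcnh1, Kcne4 and Kcnk10 higher. Without Kcnk6 and Kcnma1, which met the 80-count minimum through NCM alone, 7 did. Over all genes tested 36.9% were called, and 8.61% were called with at least a 2-fold change. Pore genes of the family of calcium- or sodium-activated channels, counted with their relative Kcnu1, were mainly lower. Kcnma1 (chromosome 14, 23289431 to 24004859), the large-conductance BK channel, was at 0.0966, 0.037, 0.140 and 0.120 CPM in LLC_CM and 1.67, 2.66, 1.94 and 2.62 CPM in NCM, from 13 and 262 counts. The LLC_CM libraries were near the floor and the NCM libraries far above it, and Kcnma1 fell by 4.40 ± 0.35 (adjusted p = 9.9e-08). The ratio of pooled counts, NCM over LLC_CM, was 21.8 (exact 95% counting interval 12.5 to 41.5). Its auxiliary subunit Kcnmb4 had a log2 fold change of -0.75 ± 0.29 (adjusted p = 0.060), and passed with DESeq2 (0.049), without the low-count filter (0.049), without LLC_CM replicate 3 (0.044) or without NCM replicate 1 (0.019).

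Kcnn1, a small-conductance calcium-activated channel, fell by 1.54 ± 0.24 (adjusted p = 0.00011), with 0.666 to 1.29 CPM in LLC_CM and 2.22 to 3.07 CPM in NCM. Kcnn4, the intermediate-conductance channel of blood and connective tissue cells, fell by 0.49 ± 0.14 (adjusted p = 0.014). Its groups overlapped (7.58 to 12.8 and 11.8 to 15.8 CPM). With the deposited lengths Kcnn4 was the most abundant potassium channel gene per kilobase. With the GENCODE lengths it stood at 2.38 CPM per kilobase over the 8 libraries, against 2.37 for Kcnd1. In LLC_CM alone Kcnd1 (2.74) and Kcnt2 (2.48) were then above Kcnn4 (1.98). Kcnu1, a relative of Kcnma1 known from sperm, fell by 0.77 ± 0.23. Kcnt2, a sodium-activated channel, rose by 0.35 ± 0.09 (adjusted p = 0.0071). Of the 5 pore genes of this family 4 were lower and 1 was higher.

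The K2P channels, which carry background potassium current, split by gene. Kcnk5, an alkaline-activated channel, stood at 6.28, 5.29, 6.02 and 5.41 CPM in LLC_CM and 1.40, 2.23, 1.41 and 1.80 CPM in NCM. No library came near the other group, and Kcnk5 rose by 1.75 ± 0.17 (adjusted p = 9.0e-07), 3.36-fold higher. Kcnk10 rose by 1.03 ± 0.29 (adjusted p = 0.010) from 0.436 to 0.892 CPM, while its relative Kcnk2, the stretch- and lipid-sensitive TREK channel, had 7.19 ± 0.485 CPM in LLC_CM and 7.86 ± 0.672 CPM in NCM (SD, n = 4) and did not pass (log2 fold change -0.13 ± 0.11). Kcnk6 had counts in 1 LLC_CM library, 2 in replicate 4, against 23, 28, 30 and 31 counts in NCM. The pooled ratio, NCM over LLC_CM, was 60.6 (exact 95% counting interval 16.4 to 507). The fitted fall by 5.60 ± 0.58 (adjusted p = 1.8e-06) rests on those 2 counts, became -7.86 without LLC_CM replicate 4, and depends there on the prior count.

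Voltage-gated potassium channels changed in both directions, 2 lower and 2 higher of 6. Kcnf1, a subunit that is silent alone and modifies other channels, was at 0.644, 0.481, 0.364 and 0.658 CPM in LLC_CM and 3.04, 2.59, 3.32 and 2.30 CPM in NCM. Kcnf1 fell by 2.38 ± 0.24 (adjusted p = 1.3e-06), 5.21-fold lower, without overlap. Kcnh2, the channel of cardiac repolarization known as hERG, was at 1.48, 1.74, 4.26 and 2.81 CPM in LLC_CM and 6.89, 7.44, 10.4 and 7.41 CPM in NCM. In both groups replicate 3 was the highest, and Kcnh2 fell by 1.62 ± 0.27 (adjusted p = 0.00039). Its relative Kcnh1, an ether-a-go-go channel, moved the other way, from 1.09, 0.744, 1.09 and 1.10 CPM in NCM to 2.32, 2.85, 3.42 and 2.90 CPM in LLC_CM, and rose by 1.51 ± 0.20 (adjusted p = 3.0e-05). Kcnd1, an A-type channel, rose by 0.45 ± 0.10 (adjusted p = 0.0026), from 10.6 ± 1.29 to 14.5 ± 0.747 CPM (SD, n = 4). The silent subunit Kcns1 (0.76 ± 0.37, adjusted p = 0.13) did not pass, and passed without LLC_CM replicate 4 (0.022).

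Of 6 auxiliary and interacting proteins of potassium channels, Kcne4, an inhibitory single-span subunit, rose by 1.18 ± 0.26 (adjusted p = 0.0020), from 0.565 to 1.74 CPM in NCM to 2.48 to 3.33 CPM in LLC_CM. Kcnab3, a cytoplasmic beta subunit, fell by 0.57 ± 0.17 (adjusted p = 0.017), while Kcnab2, Kcnip2 and Kcnip3 had log2 fold changes of 0.35, 0.11 and -0.19 and did not pass. No inward rectifier gene reached the minimum: of 15 Kcnj genes 9 had no count and the highest total was 49. Of those, Kcnj15 had 47 counts in LLC_CM and 2 in NCM, and Kcnj2 had 34 and 4.

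The names matched 121 further protein-coding genes below the minimum, 67 of them with no count and 54 with 1 to 79 counts. Just outside it lay Scn4a with 71 counts (59 in LLC_CM, 12 in NCM) and Scn9a with 64 (21 and 43). Just inside lay Kcnip2 with 111 (60 and 51) and Kcnk6 with 114 (2 and 112). ClC genes were the family with the largest share present, 7 of 7. The calcium- or sodium-activated potassium channels, counted with Kcnu1, followed with 5 of 8, while voltage-gated potassium channel alpha subunits had 6 of 40.

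Within groups, certain libraries were repeatedly extreme for the channel genes. NCM replicate 3 was the highest NCM library for 26 of the 54 (48.1%), where it was the highest for 31.2% of all genes tested. LLC_CM replicate 3 was the highest of its group for 29 (53.7%, against 26% of all genes) and LLC_CM replicate 2 the lowest for 27 (50.0%, against 30.5%). Without NCM replicate 3, Trpv4 fell by 1.35 (adjusted p = 1.5e-06), Trpm4 fell by 0.61 (0.0006), Cacna1d rose by 3.36 (8.3e-05) and Kcne4 rose by 0.93 (0.0021).

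Other ion transport genes were followed in lists outside the name rule, to which 36.9% called among all genes tested is again the background. Of 88 tested, 19 rose and 32 fell (median log2 fold change -0.07). Genes of calcium pumps and exchangers, of the plasma membrane and of organelles, were mostly lower, 7 of 10 tested, with 1 higher (median log2 fold change -0.87). Slc8a3, a sodium-calcium exchanger, stood at 2.60 ± 0.799 CPM in LLC_CM and 150 ± 12.3 CPM in NCM and fell by 5.84 ± 0.15. Atp2a3, a calcium pump of the endoplasmic reticulum, fell by 4.28 ± 0.29, and Atp2b4, a calcium pump of the plasma membrane, fell by 1.26 ± 0.06, while Atp2a2, the main such pump of the reticulum, had a log2 fold change of 0.01 ± 0.06. Of 5 tested genes of the sodium-potassium pump 4 fell, among them Atp1b3, a beta subunit, by 0.91 ± 0.06 and the regulator Fxyd5 by 0.92 ± 0.10.

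Among 20 store-operated and intracellular calcium channel genes 8 fell and 3 rose (median -0.06). Tpcn1, an endolysosomal channel, fell by 1.92 ± 0.09, Mcu, the mitochondrial uniporter, fell by 0.63 ± 0.08, and Itpr1, an inositol trisphosphate receptor, rose by 0.74 ± 0.08. Of 12 ligand-gated and acid-sensing channel genes 6 rose and 2 fell (median 0.45). P2rx4, an ATP receptor, rose by 0.83 ± 0.06 and P2rx6 by 2.20 ± 0.20, and Cngb1, a cyclic nucleotide-gated subunit, fell by 2.81 ± 0.14. Of 7 gap junction and pannexin genes 3 rose and 2 fell. Panx3, a pannexin of osteoblasts, went from 824 ± 36.6 to 272 ± 49.7 CPM and Gja1, the main connexin of bone cells, from 71.8 ± 5.63 to 31.5 ± 1.71 CPM (SD, n = 4), falls by 1.6 ± 0.11 and 1.19 ± 0.07.

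Of 13 other chloride channel genes 4 rose and 4 fell (median 0.09), with Ttyh3, a tweety-family protein, up by 1.09 ± 0.08, Ostm1, the partner of Clcn7 in lysosomes, up by 0.66 ± 0.06, and Clca1, a secreted regulator, up by 5.32 ± 0.43 from 0.114 CPM. Other genes of known or proposed mechanosensitive channels and their relatives (Tmem63a, Tmem63b, Tmc4, Tmc6 and Tmem120a) had 0 of 5 called by edgeR, with 2 at an unadjusted p under 0.05. DESeq2 called 1 and limma-voom 0. Of 16 genes of calcineurin, Yap and stretch responses 5 fell and 2 rose, close to the background. The 2 that rose were Ankrd1, by more than 2-fold, and Amotl2, by less than 2-fold. Ctgf, a matricellular Yap target, fell by 4.40 ± 0.14 and Wwtr1, a relative of Yap, by 0.50 ± 0.06. Cyr61, another Yap target, had a log2 fold change of 0.00 ± 0.07, and Nfatc1, a calcineurin-dependent factor, fell by 0.39 ± 0.08.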

How the data were processed

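Poly(A) RNA of 8 libraries was sequenced. Raw read counts per gene, as whole numbers, were deposited by the authors. CASAVA, STAR, featureCounts and mm10 are named per the submitters' processing notes, whose versions were not given in the sources used here. TruSeq libraries were made with a kit that does not mark strand, so antisense reads cannot be separated. Gene lengths are those per the file headers, in the deposited table.

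Columns were matched to samples by title. Members and lists were chosen with earlier results of these data known. edgeR 4.0.16 (R 4.3.3, limma 3.58.1) was fitted over all 14991 genes passing filterByExpr, with TMM factors, robust quasi-likelihood F tests and no covariate, and p-values were adjusted over all of these genes by Benjamini-Hochberg. The standard error was taken as |log2 fold change| over the root of F. The fit was tested on simulated data. CPM uses TMM-scaled totals of the tested genes. No 2 libraries of 1 group were alike within sampling noise (chi-square per degree of freedom 7.07 or more). Named genes were, per class, those called at 2-fold or more, the 3 smallest adjusted p, the 2 highest levels per kilobase and both Piezo genes, and up to 3 called genes per related list. Other genes were named after their values were seen. A few members and list genes are not reported singly. Exon overlaps and lengths came from GENCODE M21, which held all 54 members (34 with identical coordinates), and stretches of identity from blastn 2.17.0. Alternatives were DESeq2 1.42.0, limma-voom, 3 other scalings, 2 other filters, other thresholds, a 200-count minimum, the replicate number as a block and leaving out each library.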

Additional observations from a re-analysis of the deposited data

Results flagged for a closer look

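A library far from the other 3 of its group was looked for in 28 channel genes and both groups (56 cases), where chance flags about 1 in 20 groups. NCM replicate 3 stood apart for 3 genes that carry results above. Trpv4 was at 35.6 CPM there and at 23.7 to 24.9 CPM in the other NCM libraries. Kcnh2 was at 10.4 CPM against 6.89 to 7.44 CPM, and fell by 1.48 without that library (adjusted p = 0.0013). Cacna1d was at 0.353 CPM against 0.126 to 0.142 CPM. For Kcnh1 NCM replicate 2 was low, at 0.744 CPM against 1.09 to 1.10 CPM, and Kcnh1 rose by 1.38 without it (adjusted p = 0.00023). Kcnk6 was at 0.0598 CPM in LLC_CM replicate 4, from 2 counts, and at 0 in the other LLC_CM libraries.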

How the results depend on the processing

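Against a 2-fold change itself, 785 genes passed, with 2 channel genes higher and 6 lower. By class 4 potassium, 2 chloride, 1 calcium, 1 Piezo or Trp and 0 sodium genes passed (by edgeR, with 1 sodium gene at an unadjusted p under 0.05), as did 17 genes of the related lists. At an adjusted p of 0.01 4 chloride genes were called in place of 7. All other settings kept the counts within 1.5 times, and 32 of the 36 called channel genes passed in each of the 16 other fits that tested them. The exceptions are Trpm3, Trpv2, Clcn2 and Ano3. Uncalled genes near 0 changed sign when a library was left out: Cacnb1 ranged from -0.02 to 0.18 and Kcnip2 from -0.07 to 0.33. With the replicate number as a block, 5473 genes, 16 higher and 20 lower channel genes passed. Deviations of same-numbered libraries correlated at -0.044 to 0.204, so the numbers were not taken as pairs. Members under 1 CPM rest on few counts, and changes there below 2-fold could go undetected.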
